A study of Homo sapiens with 8 samples.

Results

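Protein-coding genes whose RNA was strongly enriched in chromatin were examined in HAP1, a near-haploid human cell line derived from a chronic myeloid leukemia. A locus of the short-read table was a member when it matched a protein-coding gene of GENCODE on hg38, when the log2 ratio of its mean normalized count + 1 in chromatin over nucleoplasm was above 2, and when its mean over the 6 short-read libraries was at least 50. Of 11439 protein-coding loci with that mean, 319 (2.79%) were members, and they named 317 genes. XRCC2 and TRIM66 were named by a pair of loci each. Because the members were selected on the chromatin to nucleoplasm ratio, that ratio is given as a description of them and was not tested.

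HAP1 nuclei were extracted with urea and a detergent, and centrifugation left a chromatin pellet and a nucleoplasm supernatant. The labels name no treatment or edit of the cells, and ribosomal RNA was depleted from both. There were 3 directional short-read libraries of chromatin and 3 of nucleoplasm, from 3 independent cultures, and 2 nanopore direct cDNA libraries of chromatin only. HAP1 is 1 clonal line, and the nanopore RNA was given poly(A) tails by an enzyme, so a tail in those reads does not mark a natural 3′ end.

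Messenger RNA is spliced and cleaved while the polymerase is still on the gene, and most finished mRNA leaves the chromatin and is exported. RNA can be recovered with chromatin because it is still being made, because introns remain in it, or because it is held there by proteins. Long genes keep nascent RNA on the template for longer, and some mRNAs of splicing regulators are known to be kept in the nucleus with introns retained.

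One label field named chromatin for all libraries, so fractions were taken from the titles. MALAT1, a nuclear-retained RNA, was at 965711 ± 67446 normalized counts in chromatin against 113268 ± 2725 in nucleoplasm (SD, n = 3 each), and GAPDH, a glycolysis enzyme, was at 17269 ± 2016 against 87564 ± 2180. Recovered read totals were 38895027 to 43804918 for chromatin and 75737601 to 79523938 for nucleoplasm. Of 7 blood markers 6 were absent or nearly so, with PTPRC, SPI1, MPO and GATA1 at 0 reads in every library and CD33 and CD34 at 5 reads or fewer. The other, RUNX1, a haematopoietic transcription factor, had means of 1310 ± 13.8 (chromatin) and 405 ± 15.6 (nucleoplasm). VIM was at a mean of 4212 normalized counts in the chromatin libraries and 14304 in those of nucleoplasm. ERCC standards, synthetic RNAs added in the same volume to each fraction, summed in the chromatin libraries to 105215 ± 14826 normalized counts and in the nucleoplasm libraries to 42096 ± 6706, a log2 ratio of 1.32. The deposited normalization therefore places the standards themselves higher in chromatin, and the absolute level of every ratio below depends on that choice. The paper, in contrast, reports equivalent levels of the standards in both fractions.

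The median log2 ratio of the members was 2.46, a 5.52-fold difference, beside -0.44 over all 11439 measured protein-coding loci. The ratio lay between 2 and 3 for 250 members, between 3 and 4 for 51 and above 4 for 18, with SESTD1 highest at 5.85. The deposited normalization alone does not separate a larger share of the fraction from more RNA per nucleus. Ratios scaled to the ERCC standards, added in the same volume to each fraction, are given in the next paragraph. In all 319 members the lowest chromatin library was above the highest nucleoplasm library, as in 29.7% of measured loci. The limma fit called 318 of the 319 higher in chromatin past a log2 difference of 2, beside 3.94% of the protein-coding loci tested and 21.2% of all genes tested, and the exception was SSBP2, with a fitted difference of 1.999. The members were chosen by the same contrast, so nothing is read from these counts. Members took 6.23% to 6.93% of the protein-coding counts in the chromatin libraries and 0.783% to 0.813% in the nucleoplasm libraries.

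When every library was divided by its ERCC total instead, the median log2 ratio was 1.13 for the members and -1.77 for all measured loci, so the distance between them was 2.90, beside 2.91 before. Only 41 of the 319 then still met the rule, with a log2 ratio above 2 and a scaled mean of at least 50. Loci whose scaled mean fell under 50 are not among them, whatever their ratio. They were 16 of the second loci defined below, 6 loci inside an intron of another gene, 2 that share exons and 17 others, among them ANKRD36B, PPFIA2, HOXD3, CENATAC, CCNL1 and FOS. With equal totals of normalized counts in every library, 646 loci met the rule, all 319 members included.

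Chromatin library 2 stood apart from the other chromatin libraries for the members. It held the highest of the 3 chromatin values for 247 members (77.4%), against 26.9% of the other measured loci. Without it 283 members met the rule and the median log2 ratio was 2.40. The median coefficient of variation in chromatin was 9.45% for members and 5.98% for the other loci, and in nucleoplasm it was 5.68% and 3.38%. The part of this library in the ratios was not tested beyond leaving it out.

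**Figure D1:**
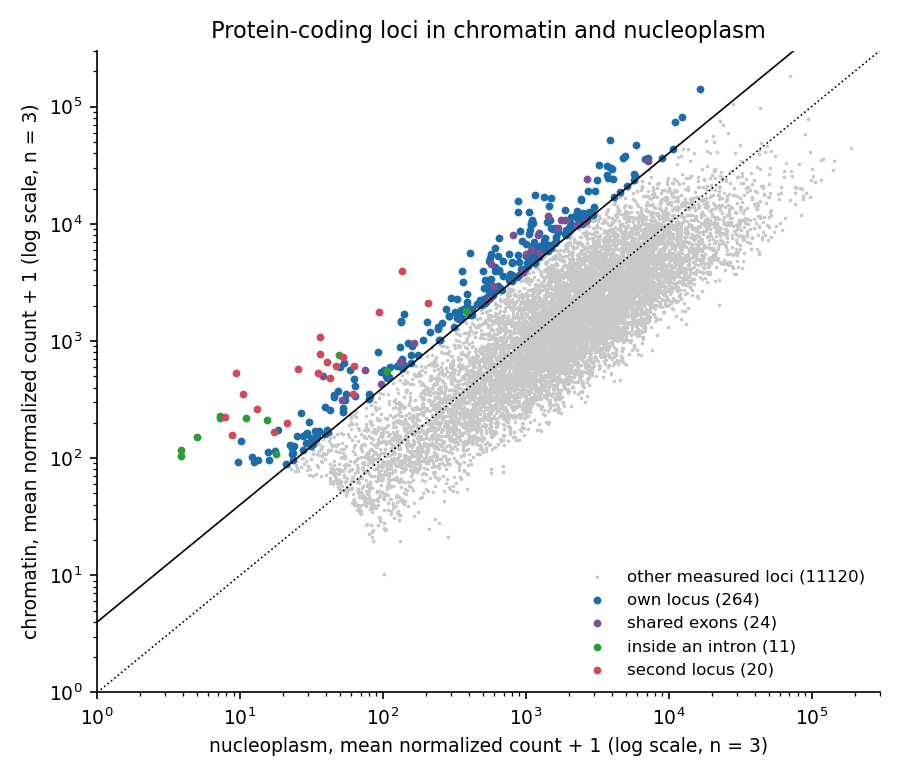
Each point is 1 protein-coding locus, with the mean normalized count + 1 of 3 nucleoplasm libraries on the x axis and of 3 chromatin libraries on the y axis, both on log scales. Grey points are the 11120 other measured loci, coloured points are the 319 members by their position, the solid line is a 4-fold ratio and the dotted line is equality. Second loci (red) and loci inside an intron (green) lie farthest from the line, at low nucleoplasm counts.

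Members fell into 4 positions, which use only coordinates. For 264 the locus was the gene's own. For 24 the gene shares exons with another gene on the strand, as in readthrough genes, so their counts can be split and are uncertain. For 11 the gene lies inside an intron of another gene on the same strand. The remaining 20 were second loci, meaning that another assembled locus on the same strand spanned at least 5 percentage points more of the gene's exonic bases than the member locus did. Among the 20 largest ratios, 12 were second loci, 7 lay inside an intron and 1, ANKRD36B, was an own locus.

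The second loci had a median log2 ratio of 4.08, whereas the loci that covered the same genes had a median of -0.60. Of these 20 covering loci 16 were below 0 and only those of XRCC2 and TRIM66 were above 2. The member locus spanned a median of 28.3% of the gene's exonic bases, and for LRRN1, PGRMC2 and MED19 it spanned none. For 17 of the 20 genes the covering locus had the larger mean count in chromatin. When the counts of both loci were added, which was chosen after seeing the data, only XRCC2 (2.56) and TRIM66 (2.51) kept a log2 ratio above 2, and the median of the 20 sums was -0.28. Of all 28 second loci measured, 20 were members, but 14 of these 20 had a nucleoplasm mean under 50 and reached the minimum only through chromatin, so their share is partly set by that minimum.

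The ends of these loci lay away from annotated exons. Of the 20 second loci, 19 started and 20 ended outside the exons of their gene, and 12 had both ends within the gene. None of the 20 had a poly(A) signal, searched as AATAAA or ATTAAA on the transcribed strand, in its last 50 bases. The same letters stood in that window for 54.2% of members at their own locus, for 62.8% of all measured loci and for 2 of the 8 second loci that were not members. A match describes the sequence only, and a missing signal says only that these letters were not in the window. Annotation guided the assembly, so own loci can end at annotated gene ends, whereas all 20 second loci ended outside exons. No rate was computed for other sequence outside exons, so nothing is read from this difference.

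The last 50 bases of 3 of the 20 second loci are shown 5′ to 3′ from hg38 to let the absence of a signal be read directly. Either hexamer would stand in capitals, and no window has one. None of these windows overlaps an annotated exon.
LRRN1, chr3:3831484-3831533, plus strand: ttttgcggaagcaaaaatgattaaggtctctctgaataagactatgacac
PGRMC2, chr4:128275289-128275338, minus strand: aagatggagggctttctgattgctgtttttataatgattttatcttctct
RRM2, chr2:10209521-10209570, plus strand: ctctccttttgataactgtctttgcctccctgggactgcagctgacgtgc

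SESTD1 encodes a protein with SEC14 and spectrin domains. Its second locus lay within the gene at chr2:179161482-179258664 and gave 533, 596 and 481 normalized counts in the 3 chromatin libraries and 6.14, 10.3 and 8.45 in the nucleoplasm libraries. The locus that covered the SESTD1 exons was far higher and nearly level between fractions, at 4912 ± 87.2 in chromatin and 5469 ± 208 in nucleoplasm, a log2 ratio of -0.15.

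LRRN1, a neuronal leucine-rich repeat membrane protein, showed the largest second locus by chromatin count. It had 3801, 4465 and 3663 normalized counts in chromatin and 132, 151 and 123 in nucleoplasm, a log2 ratio of 4.87. The covering LRRN1 locus was at 1655 ± 65.7 and 2005 ± 87.9, a log2 ratio of -0.28, so here the second locus exceeded the mRNA locus in chromatin. PGRMC2, a heme-binding membrane protein, had the same order, with a second locus at 1752 ± 34.7 against 93.0 ± 12.1 and a covering locus at 814 ± 79.8 against 1149 ± 50.4.

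RRM2, the small subunit of ribonucleotide reductase, was at 2094 ± 470 against 205 ± 21.4 in its second locus and at 8509 ± 137 against 12964 ± 17.9 in the covering locus. NDUFAB1, the mitochondrial acyl carrier protein, and CS, citrate synthase, met the rule through second loci with log2 ratios of 4.15 and 3.22 while the loci covering them were at -2.10 and -1.79. For CS and for ANAPC7, a subunit of the anaphase-promoting complex, the covering locus matched another annotated gene of a longer span. EIF5B, a translation initiation factor, was at 4.01 in its second locus and -0.39 in the covering one.

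**Figure D2:**
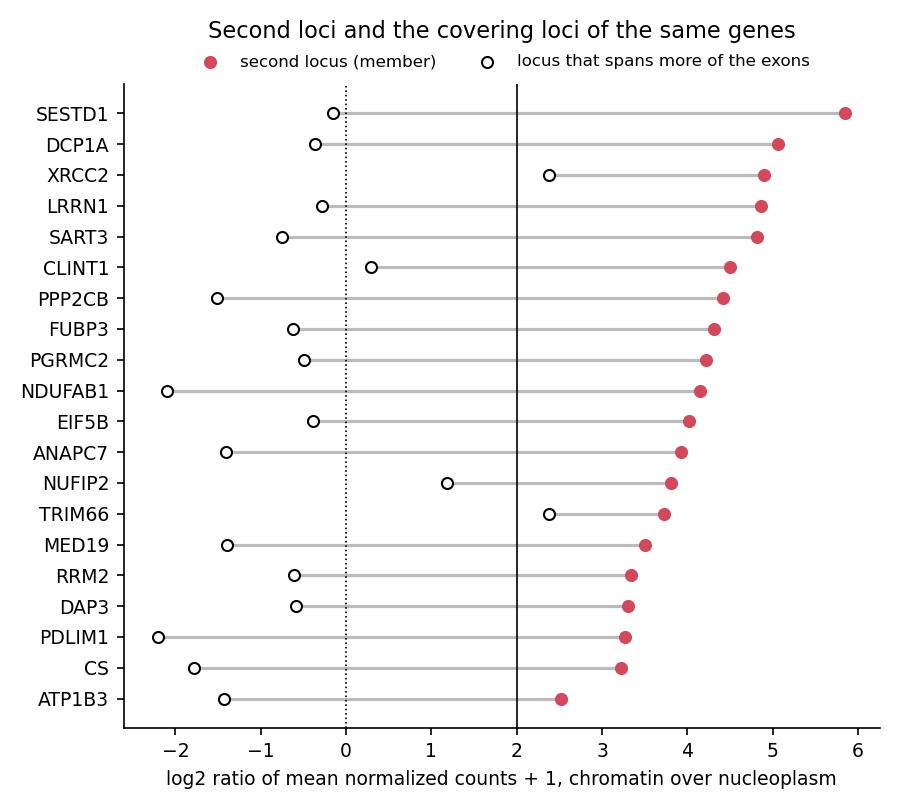
Rows are the 20 genes that met the rule through a second locus. Filled red points are the log2 ratio of that locus and open points the ratio of the locus that spans more of the gene's exons, with lines at 0 and at the threshold of 2. All filled points lie to the right of the threshold, and 18 of the 20 open points lie to its left.

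The 11 genes inside introns were mostly single-exon genes (7 of 11), with low counts. TAS2R3, TAS2R4 and TAS2R30 are bitter taste receptors, and all of them reached the minimum mean only through chromatin, with nucleoplasm means of 6.28, 48.3 and 6.29. TAS2R3 gave 236, 277 and 169 normalized counts in chromatin and 4.39, 5.17 and 9.29 in nucleoplasm, whereas SSBP1, the mitochondrial single-strand binding protein gene in whose intron it lies together with TAS2R4, was lower in chromatin, with a log2 ratio of -0.77. The same held for PAPOLB, a testis poly(A) polymerase, at a log2 ratio of 4.91 within RADIL at -1.17, and for EID3 at 4.33 within TXNRD1, thioredoxin reductase, at -1.19. GPR52, an orphan receptor, was at 4.92 within RABGAP1L at 0.23, and RPA4, a replication protein A paralog, at 3.79 within DIAPH2 at 0.72. TAS2R30 was at 4.91 within PRH1, a gene that was a member itself at 2.31. ADAM20, a testis metalloprotease, was at 4.75, and its host ENSG00000257759 had 2.70 normalized counts in chromatin and was at 0 in nucleoplasm. Intron RNA of the host on the same strand and RNA of the inner gene cannot be told apart in these counts. Of all 57 measured loci inside an intron, 11 were members, and 9 of these 11 had a nucleoplasm mean under 50.

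Most members stood at their own locus, and their median log2 ratio was 2.39 beside -0.49 for the other own loci. AHNAK, a giant scaffold protein under the plasma membrane, was the most abundant. It gave 150520, 128749 and 144223 normalized counts in chromatin and 16330, 17718 and 15626 in nucleoplasm, an 8.52-fold difference. SPTBN1, a beta spectrin of the membrane skeleton, followed at 91422, 76611 and 79148 against 12258, 12477 and 12715.

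OGT, the enzyme that adds N-acetylglucosamine to nuclear and cytosolic proteins, was at 74572 ± 10247 in chromatin and 11104 ± 141 in nucleoplasm. PPFIA2, a liprin of the synaptic scaffold, had the largest ratio of the 10 most abundant members, at 51983 ± 5822 against 3877 ± 187 (log2 3.74). Among these 10 were also IQGAP1, SPTAN1 (alpha spectrin), ANKRD10, PDE8A, a cyclic AMP phosphodiesterase, and RFC3, a subunit of the clamp loader of DNA replication. Their log2 ratios ran from 2.01 for PDE8A to 3.74 for PPFIA2.

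**Figure D3:**
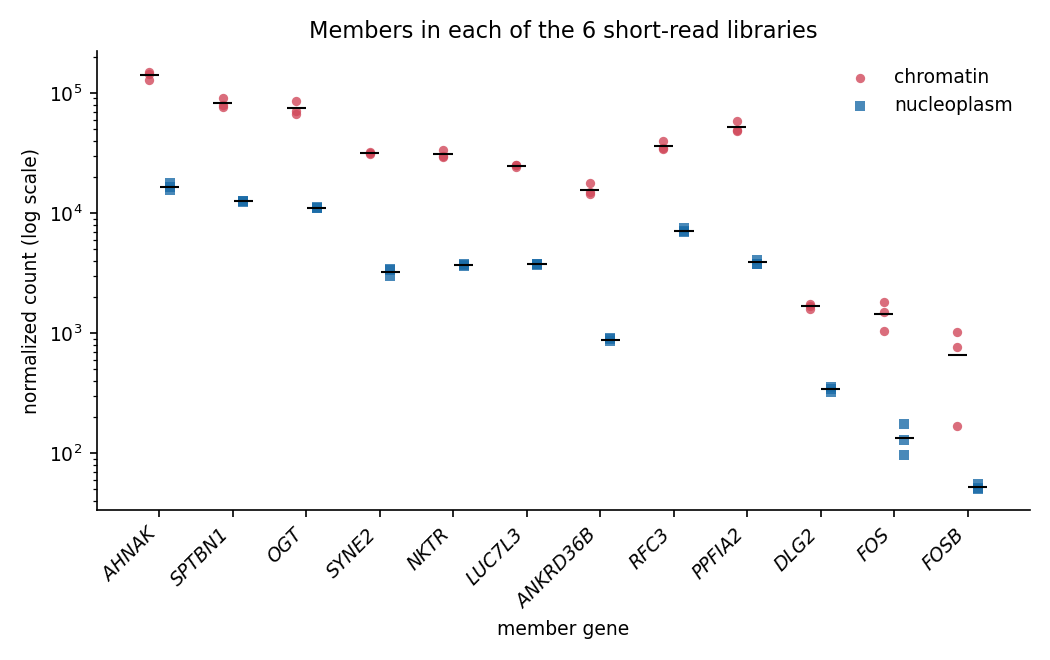
Normalized counts of 12 members at their own locus are drawn on a log scale, with circles for the 3 chromatin libraries, squares for the 3 nucleoplasm libraries and a line at each mean. Chromatin lies above nucleoplasm without overlap in each of them, as in all 319 members and in 29.7% of measured loci. FOSB has 1 chromatin library (169) far below the others (773 and 1019).

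Functions were counted with 20 lists of gene symbols and 7 lists added after the member names were seen. The lists held 119 of the 317 genes and left 198 in none. One of the added lists held spectrins, plakins, AHNAK and related genes, very long proteins that link the cytoskeleton to membranes and nuclei. The list was made from the members, so its count and median are not independent of them, and the same holds for the other added lists given below. Of its 28 measured genes 12 were members (42.9%), beside 2.79% of all measured loci. The median over all 28 was 1.22 beside -0.44 over all measured loci. SYNE2, a nesprin of the nuclear envelope, was highest at 31791 ± 625 against 3244 ± 237 (log2 3.29), and DST, MACF1 and PLEC, all plakins, lay between 2.12 and 2.28. The list was not uniform, since DSP was at -0.12, ACTN4 at -0.27 and SPTBN4 at -0.84. In chromatin library 2, 8 of the 12 members had their lowest chromatin value, opposite to most members.

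Of 49 measured splicing and nuclear speckle genes, another list added after the members were seen, 14 were members (28.6%, beside 2.79% of all measured loci). The median over the 49 was 1.26. NKTR, a cyclophilin with an arginine-serine domain, gave 29210, 33731 and 29859 normalized counts in chromatin and 3771, 3592 and 3674 in nucleoplasm. LUC7L3, a U1 snRNP factor, was at 24769 ± 548 against 3748 ± 62.1 and ARGLU1 at 23673 ± 340 against 3137 ± 228. PNISR, PSPC1, CCNL1, THOC1 and ZRSR2 were among the members too. CENATAC, a protein of the minor spliceosome, had the largest ratio of the list, 1696 ± 111 against 138 ± 25.8 (log2 3.61).

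Of 25 measured immediate-early genes, also a list added after the members were seen, 6 were members (24%, beside 2.79% of all measured loci). The median over the 25 was 0.53. FOS, FOSB and EGR1 were at log2 ratios of 3.43, 3.63 and 3.46. FOS, a subunit of the AP-1 factor, gave 1485, 1051 and 1832 normalized counts in chromatin, against 96.5, 129 and 176. In chromatin library 2, 5 of the 6 had their lowest value, and FOSB at 169 there fell near its nucleoplasm values of 50.9, 55.1 and 49.8.

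Of 34 measured ANKRD36, ANKRD20A, NPIP, ZNG1, GOLGA8 and AGAP copies, an added list, 16 were members (47.1%, beside 2.79% of all measured loci). The median over the 34 was 1.92. ANKRD36B was at 15681 ± 1703 against 884 ± 24.6 (log2 4.15), the largest ratio of a member at its own locus. These genes are near-identical copies, and the counting could split or share their reads, so the level of each copy is uncertain. All 16 had their highest chromatin value in library 2. Of 59 measured DNA repair and replication clamp loci, an added list too, 11 were members (18.6%). The median over the 59 was 0.19, and 32 of them were above 0. Among the members were RFC3, PARPBP, GEN1, a Holliday junction resolvase, and FANCL, the ubiquitin ligase of the Fanconi pathway. XRCC2 entered with both of its loci, and RPA4 lay inside an intron of DIAPH2. Of 83 centrosome and cilium genes, the last added list given here, 8 were members (9.64%), among them CSPP1, CEP295, CEP95 and CEP83. The median over the 83 was 0.29, and 50 of them were above 0.

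Among the 20 first lists, C2H2 zinc finger genes gave the most members, 13 of 375 loci (3.47%), near the 2.79% of all measured loci, although the list's median of 0.40 was above that of all loci. ZBTB20, ZNF589, ZBTB37 and ZNF460 had the highest chromatin means of these. Ubiquitin ligases and deubiquitinases gave 8 of 279 loci, led by UBE3D, and homeobox, SOX, FOX and T-box factors 4 of 112, namely ONECUT2, HOXD3, SOX6 and ZFHX2. HOXD3 was at 5657 ± 507 against 407 ± 75.6. Ion channels gave 4 of 97, with KCNQ5, a potassium channel, at 12695 ± 2209 against 886 ± 54.1 and TRPM3, a cation channel, at 16235 ± 1834 against 2440 ± 48.0. The other 2 were CACNB2 and KCNC4.

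Collagens, laminins and matrix proteases gave 5 of 71, with COL4A5, COL4A3, COL7A1 and ADAM32 among them. Synaptic and axon guidance adhesion genes gave 4 of 74, namely SLITRK5, NRG2, CADM2 and CNTN4. Solute carriers gave 3 of 186 (SLC25A27, SLC25A28 and SLC15A2), and dyneins, kinesins and myosins 3 of 75 (DYNC2I1, MYH15 and MYO15B). No member came from 6 of the 20 lists. Among those were ribosomal proteins (0 of 65, median -2.34) and proteasome subunits (0 of 41, median -1.68). Chromatin-modifying enzymes (0 of 119, median -0.09), receptor tyrosine kinases (0 of 36, -0.59) and neurotransmitter receptors (0 of 28, -0.12) were others. Members were only 2.79% of all measured loci (median -0.44), so 0 members in lists this short says little. The only member among respiratory chain genes, NDUFAB1, and among translation factors, EIF5B, was a second locus.

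The genomic span of the member genes had a median of 55925 bases (95% interval from order statistics 44734 to 63409), against 38662 for the other measured genes. Spans over 300 kb were found in 28 of the 317 genes (8.83%) and in 4.47% of the others. The share of members among the 11417 measured genes was 2.32% below 10 kb, 1.85% from 10 to 30 kb, 3.24% from 30 to 100 kb, 2.99% from 100 to 300 kb and 5.33% above 300 kb, so it did not rise at each step. Canonical transcripts over 10 kb were found in 8.52% of member genes and 4.69% of the others, and 4.95% of genes with such transcripts were members. Longer transcripts also collect more reads, and the share of members among loci was 5.89% at mean counts of 50 to 200, 2.43% at 200 to 1000, 2.07% at 1000 to 5000, 3.39% at 5000 to 20000 and 5.31% above 20000. Whether span or transcript length acts apart from count level was not tested.

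**Figure D4:**
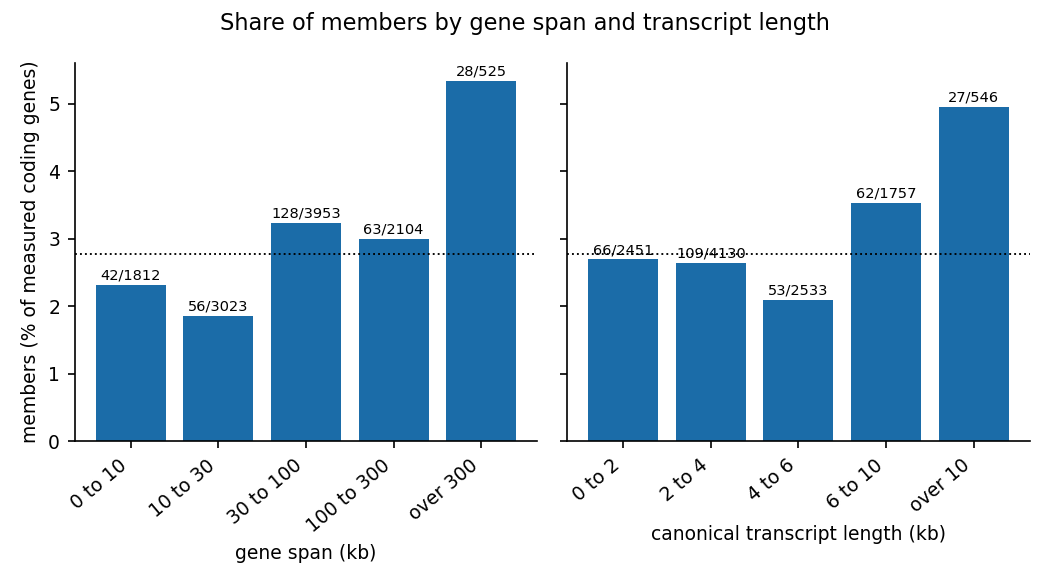
Bars give members as a percentage of the measured protein-coding genes in each bin of gene span (left) and canonical transcript length (right), with members over measured genes above each bar. The dotted line is the 2.78% of all 11417 measured genes. The highest bar of both panels is the longest class, at 5.33% and 4.95%.

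The longest member was DLG2, a synaptic scaffold gene of 2173324 bases on chromosome 11. It gave 1669, 1734 and 1603 normalized counts in the chromatin libraries and 356, 341 and 324 in nucleoplasm. MAGI2, AUTS2, CADM2 and CNTN4 followed, with log2 ratios of 2.36, 2.68, 3.11 and 2.47. The shortest were TAS2R3 (1101 bases), EID3, RPA4, GPR52 and TAS2R30 (1687 bases), all inside an intron. Introns took a median of 87.0% of the span of member genes and 85.2% of the others, and 13 member genes (4.10%) had a single-exon canonical transcript against 2.26%.

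RefSeq promoters, 250 bases before to 50 after the start on GRCh38.p14, were matched by symbol for 263 member genes (379 promoters). Their median GC content was 62.7%, against 65.3% for 13187 promoters of other measured genes. TATAAA on either strand stood in 10.8% of member promoters and 6.08% of the others, and CCAAT on either strand in 33.5% and 34.4%. Genes with several promoters count more than once. None of these matches shows that a factor binds.

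Long reads of chromatin were not used to choose the members. Both libraries held a transcript on the gene's strand for 296 of 317 member genes (93.4%, 95% Wilson interval 90.1 to 95.6) and for 95.4% of the other genes (94.98 to 95.76). ZAR1, TTC34, UNC13A and ABCA10 had none in either library. The median summed TPM was 18.7 and 13.2 in libraries 1 and 2 for member genes and 15.2 and 12.0 for the others. TPM holds no depth. The paper states that direct cDNA libraries lose the strand of origin, and it assigned strands by computation for some analyses. Whether that was done before this table was made is not stated. Transcripts on the opposite strand took 34.2% and 33.1% of all TPM assigned to member genes and 37.4% and 41.4% in the other genes. Shares on the gene's strand therefore carry an uncertainty of that origin.

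Transcripts were called annotated when GENCODE 44 holds their identifier, so that a few from the older annotation the authors used count as unannotated, at 0.586% and 1.13% of the TPM in member genes and 0.978% and 1.03% in the others. The structure of the long-read transcripts differed from that of the other genes in both libraries. Annotated transcripts took 50.7% and 48.0% of the TPM on the gene's strand in member genes and 61.8% and 62.8% in the others. Unannotated transcripts over exons took 31.5% and 31.6% against 20.0% and 18.5%. Unannotated transcripts lying wholly within an intron took 17.7% and 20.4% against 18.1% and 18.7%, and here the sets overlapped. Transcripts covering at least 90% of the gene's span took 39.3% and 37.6% in member genes and 46.1% and 46.6% in the others. These are shares of TPM summed over genes, so genes with high TPM weigh most. As means over genes, annotated transcripts took 60.2% and 58.8% in member genes against 67.7% and 68.6% in the others. Those within an intron took 14.1% and 15.1% against 16.2% and 15.7%, and full spans 44.5% and 42.2% against 51.9% and 52.7%. With 2 libraries of 1 fraction these differences were not tested, and the spread between libraries was at most 2.74 percentage points for these shares in member genes.

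**Figure D5:**
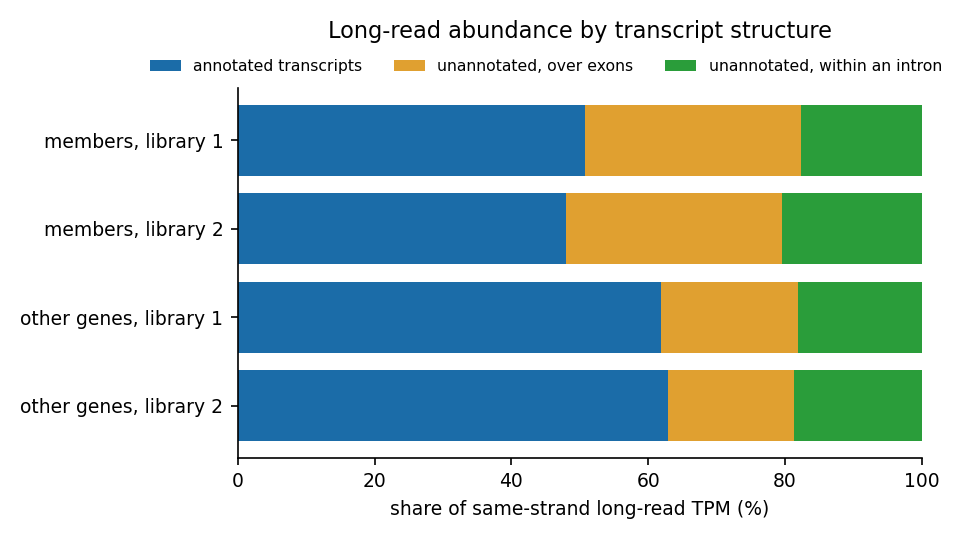
Each bar is 1 long-read chromatin library and gives the shares of TPM on the gene's strand, in percent, in annotated transcripts (blue), unannotated transcripts over exons (orange) and unannotated transcripts within an intron (green), for member genes and for other measured genes. The orange share is 31.5% and 31.6% in member genes and 20.0% and 18.5% in the others.

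Within the annotated TPM of member genes, transcripts of the protein-coding type took 59.0% and 61.7%, against 72.8% and 74.2% in the other genes. Retained-intron types took 19.0% and 19.4% against 15.0% and 14.6%, and nonsense-mediated decay types 10.9% and 9.32% against 5.23% and 4.93%. These too are shares of TPM summed over genes. The single most abundant transcript was an annotated coding one in 145 of the 313 member genes with any (46.3%) and in 60.5% of the others. It was a retained-intron type in 17 of the 313 (5.43%) and in 5.11% of the others, so by this count per gene the sets were close. In second loci that were members 71.1% and 77.1% of the TPM was annotated, beside 70.7% and 67.8% in the other second loci, 88.0% and 93.9% in members inside an intron and 49.0% and 45.8% in members at their own locus. The leading transcript spanned at least 90% of the gene in 18 of the 20 genes named by second loci and in 10 of the 11 inside an intron. The long-read values of a second locus are those of its whole gene.

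Individual isoforms followed several patterns. IQGAP1 and SPTBN1 were led by annotated coding transcripts across the whole gene, at 153 and 118 TPM for IQGAP1 and 90.6 and 109 TPM for SPTBN1. For OGT the leading transcript was unannotated, covered the gene's span and had 56.7 and 41.4 TPM. CENATAC was led by an unannotated full-span transcript at 137 and 128 TPM. AHNAK's leading transcript was a coding one over 25.2% of the span, and it was listed at 0 in library 1 and 45.9 TPM in library 2. LUC7L3 had 208 and 410 TPM in all, with an unannotated full-span transcript leading at 159 and 72.8 TPM.

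CORIN, a cardiac serine protease, had the highest long-read sum of any member, 422 and 560 TPM. Of this, 420 and 559 TPM came from 1 unannotated transcript of 957 bases within an intron, which is 0.392% of the gene's span, whereas the short-read locus had only 240 ± 31.5 normalized counts in chromatin and 25.8 ± 4.51 in nucleoplasm. ZNG1B and ZNG1C, near-identical copies, completed the 5 highest. In DLG2, MAGI2, AUTS2, CADM2 and CNTN4, the 5 longest members, the leading transcript in each case was unannotated, lay within an intron and covered under 1% of the span, as with 3243 bases in DLG2.

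Members next to the threshold were close to their neighbours outside it. Just inside were COL7A1, ENSG00000262633 and ZKSCAN8 at 2.002, 2.002 and 2.004, and just outside were CHPF2, N4BP2L2 and LUC7L2 at 1.995, 1.995 and 1.993. COL7A1 was at 320 ± 13.4 normalized counts against 79.1 ± 15.2, and CHPF2 at 3288 ± 14.1 and 824 ± 18.8. At the minimum mean, TTC34 (50.0) and KRTCAP3 (51.5) were inside, and ZNF546 (49.3) and SLC1A4 (48.7) outside. A further 336 protein-coding loci passed the ratio with a mean under 50.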

How the data were processed

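Nuclear RNA of HAP1 cells was measured in 6 short-read libraries (3 chromatin, 3 nucleoplasm) and 2 long-read chromatin libraries. The authors aligned short reads with HISAT2 2.1.0 to hg38 plus the ERCC sequences, assembled and merged transcripts with StringTie guided by GENCODE 35 and counted reads per gene from coverage. The deposited short-read values are a normalized signal per gene, these counts divided by DESeq2 size factors, without pooling. Long reads were aligned with minimap2 and assembled with StringTie, and the deposited values are TPM per transcript.

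Dividing each short-read value by the smallest of its library gave whole numbers within 0.01 for 100% of values, taken as recovered reads. MSTRG loci were matched to GENCODE 44 genes on the same strand at a span Jaccard index of at least 0.5. limma 3.58.1 (R 4.3.3) with a trend was fitted to log2(normalized count + 1) of the 26066 genes that spanned over 200 bases and reached 10 in 3 or more libraries, without covariates, with Benjamini-Hochberg adjustment, and a locus was called at an adjusted p under 0.05 and a log2 difference above 2. A pseudocount of 1 understates the change of low loci. Recovered reads were tested with edgeR 4.0.16 and DESeq2 1.42.0 as alternatives, and the limma and edgeR fits were tested on simulated data. For long reads, transcripts annotated to a gene, and unannotated ones with at least 50% of their length in it, were summed by strand and structure.

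Named members were the 10 largest ratios, the 10 highest chromatin means, the 5 longest and 5 shortest genes, the 5 highest long-read sums, the loci next to the thresholds and up to 4 of each list with at least 3 members, and others were named after their values were seen. The members and lists were chosen with earlier results of these data known. The position classes and 7 lists were chosen after seeing the members. Some genes, a list and sequences within these rules are not reported here.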

Additional observations from a re-analysis of the deposited data

How the results depend on the processing

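The count of 319 members stayed between 272 and 405 with other pseudocounts, minimum means, the median of libraries, a Jaccard index of at least 0.8 and each library left out (283 to 333). It was 41 with ERCC totals, 646 with equal totals, 1287 and 69 with log2 ratio minimums of 1 and 3, and 17 with ENSG identifiers only. The median log2 ratio was 1.13 with ERCC totals and 2.93 with equal totals, and 2.40 to 2.48 with each library left out. The 492 protein-coding loci called by limma were 117 with ERCC totals and 863 with equal totals, 515 with edgeR, 561 with DESeq2 and 451 to 506 with each library left out. With the replicate block the count was 493. Same-numbered libraries of the 2 fractions correlated at 0.087, 0.053 and 0.063 in their deviations, each higher than with the other numbers. The paper names 3 independent cultures for the libraries of both fractions, but the labels do not say that equal numbers mark 1 culture. The main fit had no pairing term, and correlations this low do not show that the libraries were unpaired. Detection in long reads was 98.7% with at least 1 library. The annotated share of long-read TPM was 49.4% on average, 32.7% with both strands, 46.7% without second and intronic loci, 50.2% with transcripts of the older annotation counted as annotated, both chosen after seeing the data, and 48.0% to 50.7% with either library alone. The median span stayed within its interval in every alternative run. The outlier test was not run, since it needs groups of at least 4. The ratio's absolute level is limited by the choice of scaling, and low nucleoplasm counts, down to 2 reads, limit the largest ratios.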
